A study of Rattus norvegicus with 4 samples.

Results

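Inhibins, activins and the follistatins that bind them were followed in whole rat ovaries through every probe set that the array's annotation lists under the single symbol Inha, Inhba, Inhbb, Fst, Fstl1 or Fstl3. These are 6 of the 14219 genes with such a probe set, and they had 11 of the 31099 probe sets in the table. In the treated group, ovaries of postnatal day 4 were cultured for 10 days with 50 ng/mL anti-Müllerian hormone (AMH), and in the control group they were cultured for the same time in the same albumin-based medium with no treatment. Each RNA sample was a pool of about 10 whole ovaries, and 2 separate pools were made for each group, each read on its own Affymetrix array (4 in all). The series title asks which transcripts change when AMH holds primordial follicles back from becoming primary follicles. The labels give no rat strain, and since whole organs were pooled, a difference in level can reflect fewer cells of a type or less RNA per cell, which cannot be told apart here.

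Inhibins and activins are dimeric hormones of the TGF-beta family that draw on the same subunits. The alpha subunit (Inha) joined to a beta subunit makes inhibin, while beta subunits joined to each other make activin A (Inhba), activin B (Inhbb) or activin AB. Activins signal through the type II receptors ACVR2A and ACVR2B, the type I receptor ACVR1B and SMAD2 and SMAD3, and inhibin blocks them by occupying the type II receptors together with betaglycan. Follistatin (Fst) and the follistatin-like protein FSTL3 bind activin and keep it from its receptors, while FSTL1 shares the follistatin domain but is a more distant relative. In the ovary, granulosa cells of growing follicles are the main source of inhibin and activin.

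Of the 11 probe sets, 9 were bright enough to be tested and 2, an Inhba and an Fstl3 probe set, were below the filter on dim signals (an intensity of about 27.8). A change is the AMH mean less the control mean of log2(intensity + 16), with the standard error from a limma fit of 2 arrays per group, and p-values are adjusted over all 18625 probe sets tested. At an adjusted p of 0.05, 2 member probe sets were higher with AMH, in Inhbb and Inhba, 1 was lower, in Fstl1, and 6 were not called. Over all tested probe sets 8.67% were called higher and 12.8% lower. The arrays of the groups did not overlap at 7 of the 9, with AMH above control at 4 and below it at 3. Over all tested probe sets the AMH arrays lay above both control arrays at 32.2% and below both at 31.2%, so a lack of overlap is common in these data.

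Several properties of the arrays differed with the group. For GAPDH, the signal at the 3′ end over that at the 5′ end, a measure of shortened RNA, was 6.56 and 6.37 on the AMH arrays and 1.17 and 1.27 on the control arrays. The chip identifiers in the labels carry a different run string for each group, so run and treatment cannot be told apart. The part of either in the results that follow was not tested. As a check of the tissue, 10 of 11 granulosa cell markers were on the array and all 10 were tested. Their summed intensity was 3937 and 3889 on the AMH arrays and 3151 and 2796 on the control arrays. Of the 10, 2 were called higher (Amhr2 and Wnt4) and 1 lower (Gata4, whose dimmer probe set was not called, at -0.251). Over all 10622 genes tested 11% were called higher and 11.9% lower. The oocyte markers had 8 of 12 members on the array, and these 8 were tested. Of them 5 were called lower (Gdf9, Sohlh1, Bmp15, Kit and Ooep) and 0 higher, also at an unadjusted p of 0.05 in the limma fit. Bmp15 (22.6 and 22.3) and Kit (18.9 and 3.9) were below the filter level on the AMH arrays. These 2 genes passed the filter through their control values, so their calls carry less weight. The median change of the 8 oocyte markers was -1.05. Their summed intensity was 7375 and 7744 with AMH and 10450 and 9788 in control ovaries, with Zp2 and Zp3, whose changes were near 0, among the brightest.

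Inhbb, which encodes the subunit of activin B and of inhibin B, rose with AMH. Its probe set read 1473.9 and 707.5 on the AMH arrays, against 350.7 and 345 on the control arrays. The control arrays were almost level, while the AMH arrays lay 1.04 apart in log2, a wider gap than at 97.4% of tested probe sets. Even the lower AMH array was above both control arrays. The change was 1.51 ± 0.29 (2.85-fold, 95% interval 0.84 to 2.18, adjusted p = 0.01). Without AMH replicate 1, the higher of its group, it was 0.99, with 1 AMH array left and so no AMH spread in the fit. The test was passed in each of 14 alternatives, with an adjusted p of at most 0.0273. Of these, the fits that left out an array had 1 array in a group, so their calls carry less weight.

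Inhba, the subunit of activin A and of inhibin A, rose as well at its bright probe set. The AMH arrays read 902.5 and 513.9 and the control arrays 342.2 and 217.6, with no overlap. The change was 1.27 ± 0.29 (2.41-fold, interval 0.61 to 1.93, adjusted p = 0.0181). The control arrays of Inhba were 0.62 apart in log2, farther than at 94.7% of tested probe sets. Without control replicate 2, the lower of them, the change was 0.96 and was not called. Scaling the arrays to the hybridization controls also ended the call (0.80, adjusted p = 0.0696). The other Inhba probe set read 55.5 and 20.3 on the AMH arrays and 4.3 and 4.7 on the control arrays. Only AMH replicate 1 was above the filter level there, so this probe set gives no second measure of the change, and with no filter it was not called (adjusted p = 0.066).

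Inha, the alpha subunit that turns a beta subunit into inhibin, was not called. Its probe set read 1930.6 and 566.2 on the AMH arrays and 518.3 and 468.1 on the control arrays. AMH replicate 2 was little above the control arrays, and AMH replicate 1 was more than 3 times as bright as replicate 2. That gap of 1.74 in log2 was wider than at 99.7% of tested probe sets. The change was 1.07 ± 0.45 (interval 0.03 to 2.10, adjusted p = 0.128). It was 0.20 without AMH replicate 1 and 1.94 without AMH replicate 2. Inha, Inhba and Inhbb were each brighter in AMH replicate 1 than in AMH replicate 2. The markers of theca and steroid-producing stroma were uneven between these arrays as well. With 8 of 9 on the array they summed to 3012 in AMH replicate 1 and 1115 in AMH replicate 2, against 939 and 836 in the control ovaries. Most of that gap was Hsd3b1, a steroid-forming enzyme, at 1840.3 and 311.8 with AMH and 282.9 and 166.2 in control, while Nr2f2 was slightly lower in AMH replicate 1 (537.2) than in replicate 2 (586.8). Of these markers Cyp17a1, Cyp11a1 and Insl3 were below the filter. At the brightest probe sets of the 5 tested 0 were called by limma, with 1 higher at an unadjusted p under 0.05. Of all genes tested, 20.4% were higher at that unadjusted p. A dimmer Nr2f2 probe set was called lower with AMH (-1.095, adjusted p = 0.0101), and another was not called (0.012). The summed surface epithelium markers, with 5 of 6 on the array, were lower in AMH replicate 1 than in replicate 2, at 1650 and 3241. In control ovaries they were 3789 and 3108. Whether these cell types had a part in the values of Inha was not tested.

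**Figure D1:**
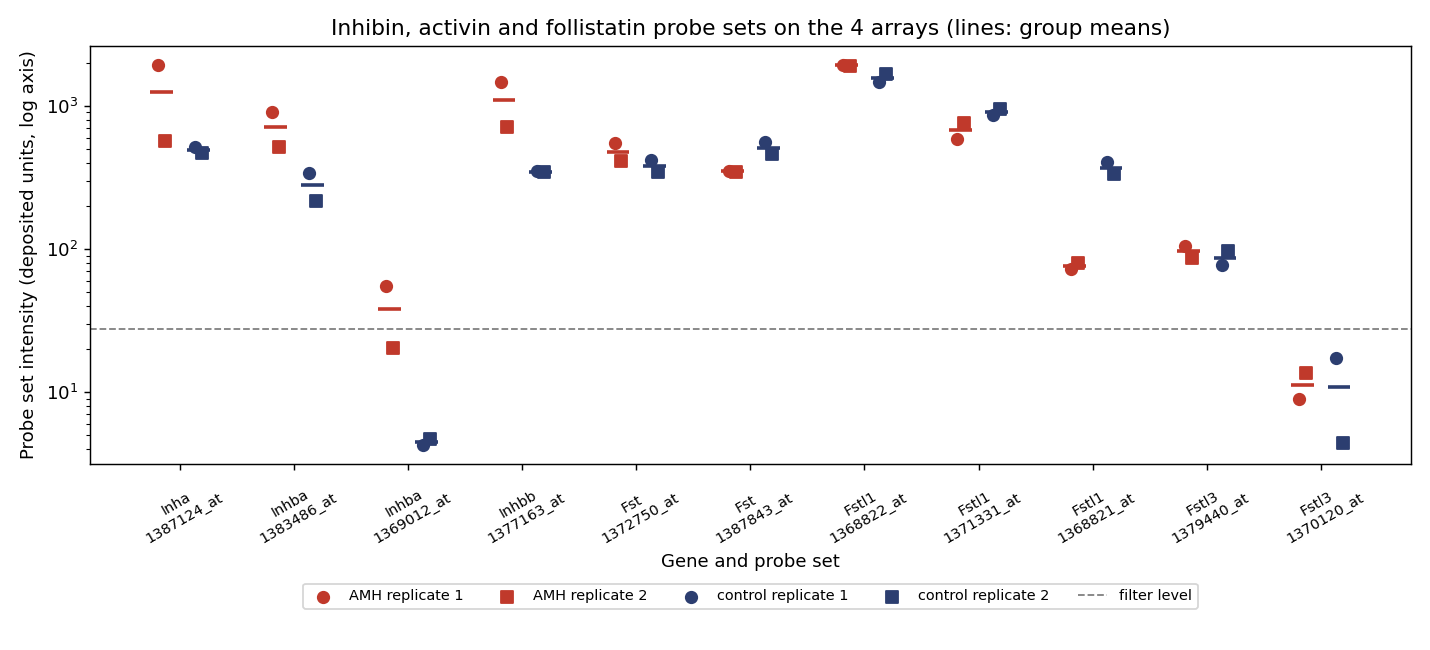
Intensity (log axis, deposited units) of the 11 probe sets on each of the 4 arrays, AMH in red and control in blue, with circles for replicate 1, squares for replicate 2 and short lines for group means. The AMH points of Inhbb and of the bright Inhba probe set are above their control points, Inha is high on AMH replicate 1 alone (1930.6), and 1 of 3 Fstl1 probe sets is far lower with AMH. The dashed line is the filter level of 27.8.

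The start regions of the 3 subunit genes are shown because these genes were the members with the largest upward changes. Each is the RefSeq window from 250 bases before to 50 bases after the annotated start on the GRCr8 assembly, read along the gene's own strand, and 5 of the 6 members had such a window. Capitals mark matches, on either strand, to the cAMP response element TGACGTCA, its variant TGCGTCA, the AP-1 site TGAGTCA, the nuclear receptor half-site AGGTCA, the SMAD box CAGAC and the GATA letters AGATA. The variant was chosen with the Inha sequence in view. Inha is on chr9:84442859-84443158 (plus strand), Inhba on chr17:53804459-53804758 (minus strand) and Inhbb on chr13:33089324-33089623 (minus strand). The start used for Inhba is 6434 bases inside the 5′ end of its annotated span.
Inha: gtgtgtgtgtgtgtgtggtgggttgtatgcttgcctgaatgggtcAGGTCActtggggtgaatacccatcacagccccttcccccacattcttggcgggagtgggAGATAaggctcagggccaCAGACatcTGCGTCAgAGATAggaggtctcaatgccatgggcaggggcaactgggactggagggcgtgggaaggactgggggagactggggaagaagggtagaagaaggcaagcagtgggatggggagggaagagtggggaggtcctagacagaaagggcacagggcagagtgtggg
Inhba: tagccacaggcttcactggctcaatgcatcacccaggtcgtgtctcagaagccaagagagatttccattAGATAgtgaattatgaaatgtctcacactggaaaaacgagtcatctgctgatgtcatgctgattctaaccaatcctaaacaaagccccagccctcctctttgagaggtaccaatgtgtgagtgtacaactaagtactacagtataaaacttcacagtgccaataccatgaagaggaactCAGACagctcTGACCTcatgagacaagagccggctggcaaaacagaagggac
Inhbb: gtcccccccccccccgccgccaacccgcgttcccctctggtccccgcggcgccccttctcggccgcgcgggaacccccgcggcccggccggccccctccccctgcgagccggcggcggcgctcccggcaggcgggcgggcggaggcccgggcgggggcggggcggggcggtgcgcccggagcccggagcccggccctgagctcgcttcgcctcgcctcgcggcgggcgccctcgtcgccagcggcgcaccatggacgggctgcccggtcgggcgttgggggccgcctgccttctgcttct

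The Inha window held TGCGTCA at -119 to -113, counted from the start with no position 0, letters that 1.9% of all 33469 windows hold. Around it were CAGAC at -127 to -123, AGATA at -145 to -141 and at -111 to -107, and AGGTCA at -205 to -200, and none of these overlapped. The Inhba window held AGATA at -181 to -177, CAGAC at -2 to 3 and, on the other strand, AGGTCA at 9 to 14, likewise without overlap. The Inhbb window held none of the 6 motifs and was 84.3% G and C, above 99.9% of all windows. Its bases from the annotated start onward open with ATG, so that start may be that of the coding sequence. This window may therefore not surround the start of the transcript. The shorter motifs are common, with AGGTCA in 16.2%, AGATA in 31.2% and CAGAC in 50.1% of windows, while TGACGTCA was in 1.83% and TGAGTCA in 4.63%. The windows of the 3 subunit genes differed widely in base composition, and a match to letters does not show that a factor binds there.

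The follistatin gene Fst was not called at either probe set, and no direction can be given for it as a gene. It had 2 tested probe sets of almost the same mean signal, and they pointed in opposite directions. The first, 1372750_at, read 547.7 and 409 on the AMH arrays and 417.1 and 345.5 on the control arrays, with overlap between the groups. Its change was 0.31 ± 0.19 (interval -0.13 to 0.75, adjusted p = 0.285). Leaving out each array in turn gave 0.10 to 0.51, with the highest value without AMH replicate 2. The second, 1387843_at, read 353 and 347.8 on the AMH arrays and 555.6 and 462.6 on the control arrays, so that both AMH arrays were lower. Its change was -0.51 ± 0.16 (interval -0.89 to -0.14), just short of the threshold (adjusted p = 0.0567). It passed with quantile normalization (-0.56, adjusted p = 0.0457), but not with median centring (-0.42, adjusted p = 0.122) or without the intensity trend (adjusted p = 0.105). Without AMH replicate 1 it was -0.52, and without control replicate 1 it was -0.39. The distance between the changes of the 2 probe sets, 0.82, was not unusual, as 34.7% of the 1994 genes with 2 tested probe sets had at least as wide a distance. The mean over both gave -0.10 (adjusted p = 0.705).

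Set against Fst within each array, the beta subunits were higher with AMH whichever Fst probe set was used. These differences do not depend on how an array is scaled, apart from the constant added before the log, and are given as a description without a test. Relative to the mean of the control arrays, Inhbb minus Fst 1372750_at was 1.52 and 0.89 on the AMH arrays, against -0.12 and 0.12 on the control arrays. With Fst 1387843_at it was 2.54 and 1.52 on the AMH arrays, against the same control values. Inhba minus Fst 1372750_at was 1.16 and 0.77 on the AMH arrays and 0.18 and -0.18 on the control arrays, and with Fst 1387843_at it was 2.17 and 1.40 on the AMH arrays. The AMH arrays were above the control arrays in all 4 of these pairings. The pairings reuse the Inhbb and Inhba probe sets, already called higher, and the Fst probe sets, which were not called. They are therefore no separate evidence. Inha minus Inhba, by contrast, was 0.27 and -0.68 on the AMH arrays and -0.24 and 0.24 on the control arrays, and Inha minus Inhbb was -0.10 and -0.80 on the AMH arrays and 0.06 and -0.06 on the control arrays. Inhbb minus Inhba overlapped between the groups, at 0.37 and 0.12 with AMH and -0.30 and 0.30 in control.

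**Figure D2:**
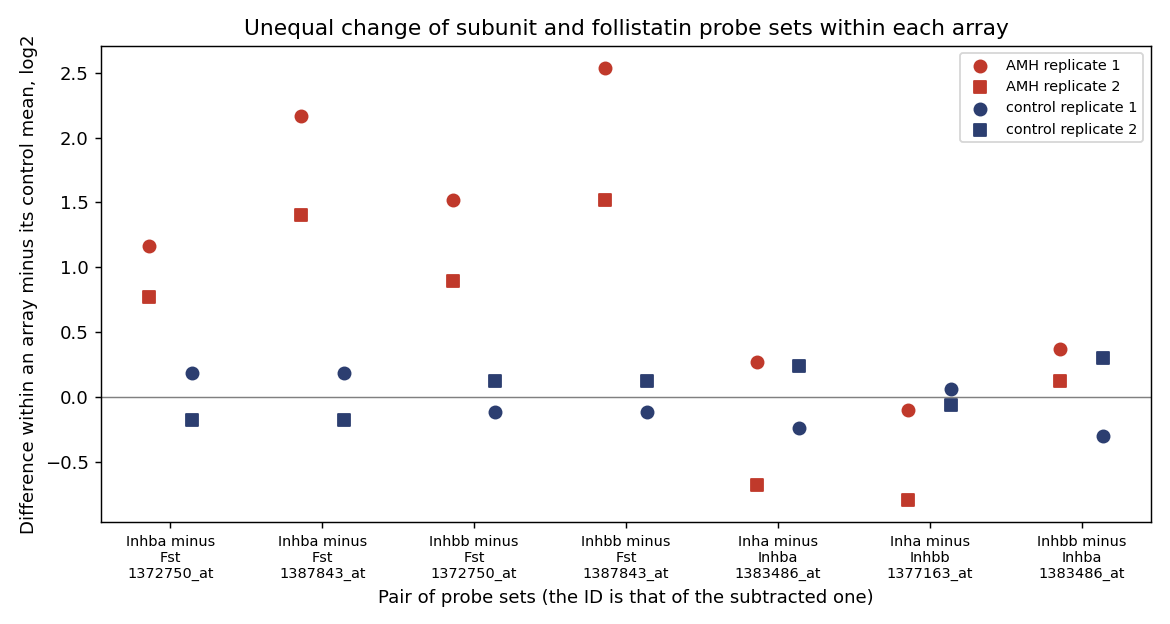
Difference between paired probe sets within each array on the log2(intensity + 16) scale, after subtracting the mean of the control arrays, with AMH in red left of control in blue (circles replicate 1, squares replicate 2). Inhba and Inhbb minus Fst are above the control points on both AMH arrays, between 0.77 and 2.54. The 3 pairings among subunits are between -0.80 and 0.37 on the AMH arrays, against -0.30 to 0.30 on the control arrays.

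The follistatin-like genes gave no common direction. Fstl1, a secreted glycoprotein of mesenchymal cells, had 3 tested probe sets that disagreed. The dimmest, 1368821_at, read 72.5 and 80.4 on the AMH arrays and 407.2 and 331.9 on the control arrays. It was lower on both AMH arrays, with a change of -2.05 ± 0.19 (4.15-fold lower, adjusted p = 0.000583), and passed in all 14 alternatives. The brightest, 1368822_at, read 1933.1 and 1901.9 on the AMH arrays and 1471.4 and 1661.7 on the control arrays. It gave 0.29 ± 0.14 and was not called (interval -0.03 to 0.61, adjusted p = 0.17).

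The third Fstl1 probe set, 1371331_at, read 591.6 and 759.6 on the AMH arrays and 865.7 and 951.7 on the control arrays, a change of -0.43 ± 0.17 (adjusted p = 0.105). Without AMH replicate 2 it was -0.60. The changes of the 3 probe sets spanned 2.35 in log2, and only 9 of the 470 genes with 3 tested probe sets (1.91%) spanned as much, against a median of 0.93. The mean over the 3 was -0.73 (adjusted p = 0.0167), although the 2 brighter probe sets were not called. The GAPDH 3′ to 5′ ratio differed between the same groups, and where each Fstl1 probe set lies along the transcript was not analysed here. No direction can therefore be given for Fstl1 as a gene.

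Fstl3, which binds activin as follistatin does, showed no detectable difference. Its tested probe set read 105.1 and 87.2 on the AMH arrays and 76.8 and 97.4 on the control arrays, with overlap. The change was 0.12 ± 0.22 (interval -0.37 to 0.62, adjusted p = 0.723). The dim probe set read 8.9 and 13.7 on the AMH arrays and 17.4 and 4.4 on the control arrays, all below the filter level.

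**Figure D3:**
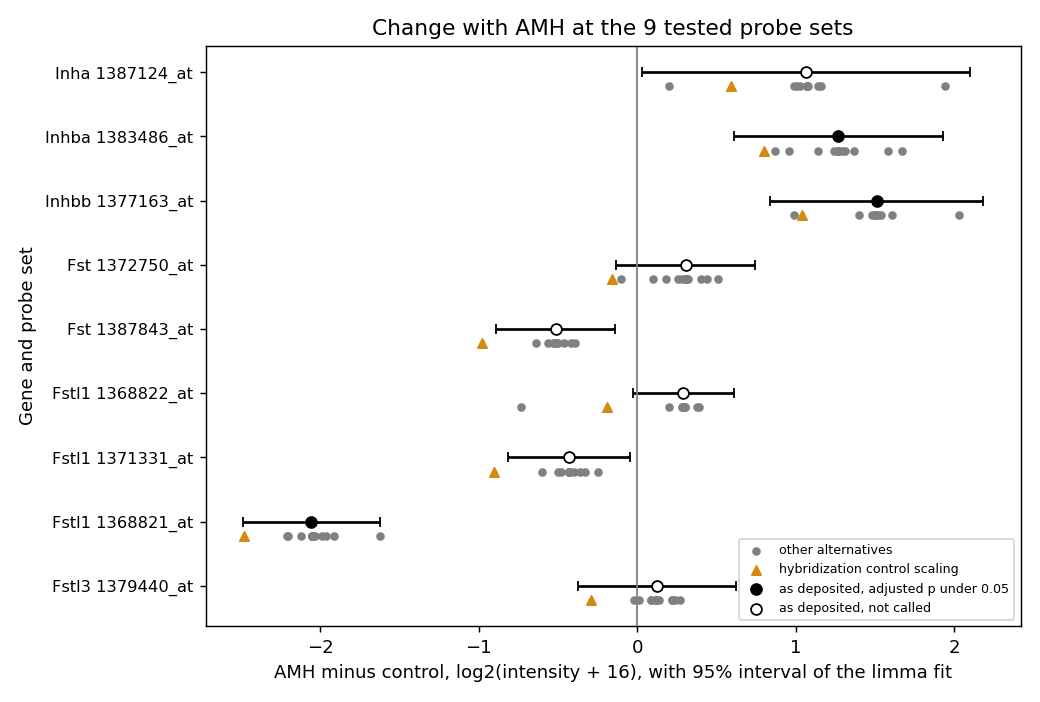
Change with AMH (AMH minus control, log2(intensity + 16)) at the 9 tested probe sets, with 95% intervals of the limma fit, filled where the adjusted p is under 0.05. Grey points and orange triangles below each give the same change under the alternative settings, and the triangles, from scaling to the hybridization controls, are shifted towards lower values at every probe set. Inhbb and Inhba are above 0 and Fstl1 1368821_at below 0 under all settings, while the first Fst, the brightest Fstl1 and the Fstl3 probe sets cross 0.

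Genes through which activin and inhibin act were counted in 6 lists, each gene at its brightest tested probe set. Without the members the lists held 57 genes, of which 49 were on the array and 39 were tested. Of these 4 were higher, 6 lower and 29 not called, with a median change of 0.05. Over all 10622 genes tested 11% were called higher and 11.9% lower, with a median of 0.07.

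Of the receptors and co-receptors, 6 were tested, with 1 higher and 1 lower. Acvr2a, an activin type II receptor, read 147.9 and 103.9 on the AMH arrays and 57.9 and 60.6 on the control arrays, a change of 0.90 ± 0.23 (adjusted p = 0.0269). The call was lost with no filter (adjusted p = 0.0588). It was also lost without control replicate 1, control replicate 2 or AMH replicate 1, where the change was 0.87, 0.92 and 0.67. Acvr2b, the other activin type II receptor, read 53.7 and 38.7 on the AMH arrays and 76.1 and 79.8 on the control arrays. Its change of -0.61 ± 0.23 was not called (adjusted p = 0.0989). Leaving out each array in turn gave -0.78 (without AMH replicate 1) to -0.43 (without AMH replicate 2). Acvr1, a type I receptor of the family, gave 0.43 ± 0.19 at its brightest probe set and was not called (adjusted p = 0.132). Its 2 dimmer probe sets were called lower (-0.92, adjusted p = 0.0163, and -1.31, adjusted p = 0.0151). The probe set with -1.31 read 18.2 and 7.9 on the AMH arrays and 54.7 and 54.9 on the control arrays. Its AMH values were below the filter level, so it was tested only through its control values.

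The decoy receptor Bambi read 409.8 and 303.1 on the AMH arrays and 1082.2 and 861.9 on the control arrays, and fell by 1.41 (adjusted p = 0.0027). Tgfbr3, the inhibin co-receptor betaglycan, gave 0.37 ± 0.31 and overlapped between the groups. Acvr1b, the activin type I receptor, was not on the array under that symbol, and Acvr1c was below the filter with at most 4.4.

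Of 8 tested SMADs and their regulators, 1 was lower and 0 were higher. At an unadjusted p of 0.05 in the limma fit 0 were higher and 2 lower, against 20.4% and 17.7% of all genes tested. Zfyve9, an anchor protein that brings SMAD2 and SMAD3 to the receptor, read 7.9 and 19.3 on the AMH arrays and 97.8 and 64.6 on the control arrays and fell by 1.72 (adjusted p = 0.00706). With AMH both values were below the 27.8 of the filter, and the change was -0.90 with a constant of 64 and -2.33 with a constant of 4. Smad3 gave -0.64 ± 0.21 (adjusted p = 0.0621), with 356.9 and 232.6 on the AMH arrays and 463.4 and 454.7 on the control arrays. Without AMH replicate 1 it was -0.93, and without AMH replicate 2 it was -0.35. Smad2 (0.05 ± 0.16) and the common partner Smad4 (0.08 ± 0.17) overlapped between the groups, but a dimmer Smad4 probe set was called lower (-1.07 ± 0.20, adjusted p = 0.00943).

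None of the 4 tested proprotein convertases, enzymes that cut activin and inhibin precursors, was called, and in the limma fit 1 had an unadjusted p under 0.05 in each direction. Furin gave -0.55 ± 0.23 (adjusted p = 0.12). It was -0.76 without AMH replicate 1, -0.33 without control replicate 1 and -0.35 without AMH replicate 2. Among 7 tested related ligands, 2 were lower and 0 higher, with 0 higher at an unadjusted p of 0.05. Bmp6 was not called at its brightest probe set (-0.445), but a dimmer one was called lower (-0.835, adjusted p = 0.0373). Bmp15, an oocyte ligand, read 22.6 and 22.3 on the AMH arrays and 147.5 and 115.2 on the control arrays (-1.93 ± 0.23, adjusted p = 0.00155). Its AMH values were below the filter level, and the change was -1.17 with a constant of 64 and -2.35 with a constant of 4. Bmp4 read 51.5 and 51.3 on the AMH arrays and 108.2 and 142.4 on the control arrays. Its change was -1.06 ± 0.22 (adjusted p = 0.0128), a call lost without control replicate 2 (-0.88).

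Of 7 other tested proteins with a follistatin domain or a related one, 3 were higher and 1 lower. Igfbp7 read 3585.5 and 2893 on the AMH arrays and 1484.2 and 1732.7 on the control arrays, and rose by 1.00 ± 0.16 (adjusted p = 0.0051). Smoc1 rose by 0.76 ± 0.18 (adjusted p = 0.0208) at its brighter probe set, while its other one gave -0.43 and was not called, and Smoc2 rose by 0.63 ± 0.19 (adjusted p = 0.0448). The call of Smoc1 was lost without control replicate 1 (change 0.62) or 2 (change 0.91). That of Smoc2 was lost with no filter (adjusted p = 0.0718), with quantile normalization (0.0596) and without the intensity trend (0.0837). It was also lost without control replicate 1 (change 0.43), control replicate 2 (change 0.82) or AMH replicate 2 (change 0.54). Sparc, a collagen-binding matrix protein of the same family as Fstl1, read 704.7 and 1184.1 on the AMH arrays and 2268.4 and 2347.9 on the control arrays, and fell by 1.32 (adjusted p = 0.00627), and its other probe set was called lower as well (-1.39).

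Of 11 tested granulosa genes known to respond to activin or FSH, a list that holds 4 of the members, 2 were higher, namely Inhba and Inhbb, and 1 was lower. Ccnd2, a cyclin of proliferating granulosa cells, read 425.7 and 454.9 on the AMH arrays and 606.1 and 890.2 on the control arrays. It fell by 0.72 (adjusted p = 0.0357), a call lost without control replicate 2 (-0.45). The call was also lost with median centring (-0.62, adjusted p = 0.075), with no filter (0.064) and without the intensity trend (0.0751).

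**Figure D4:**
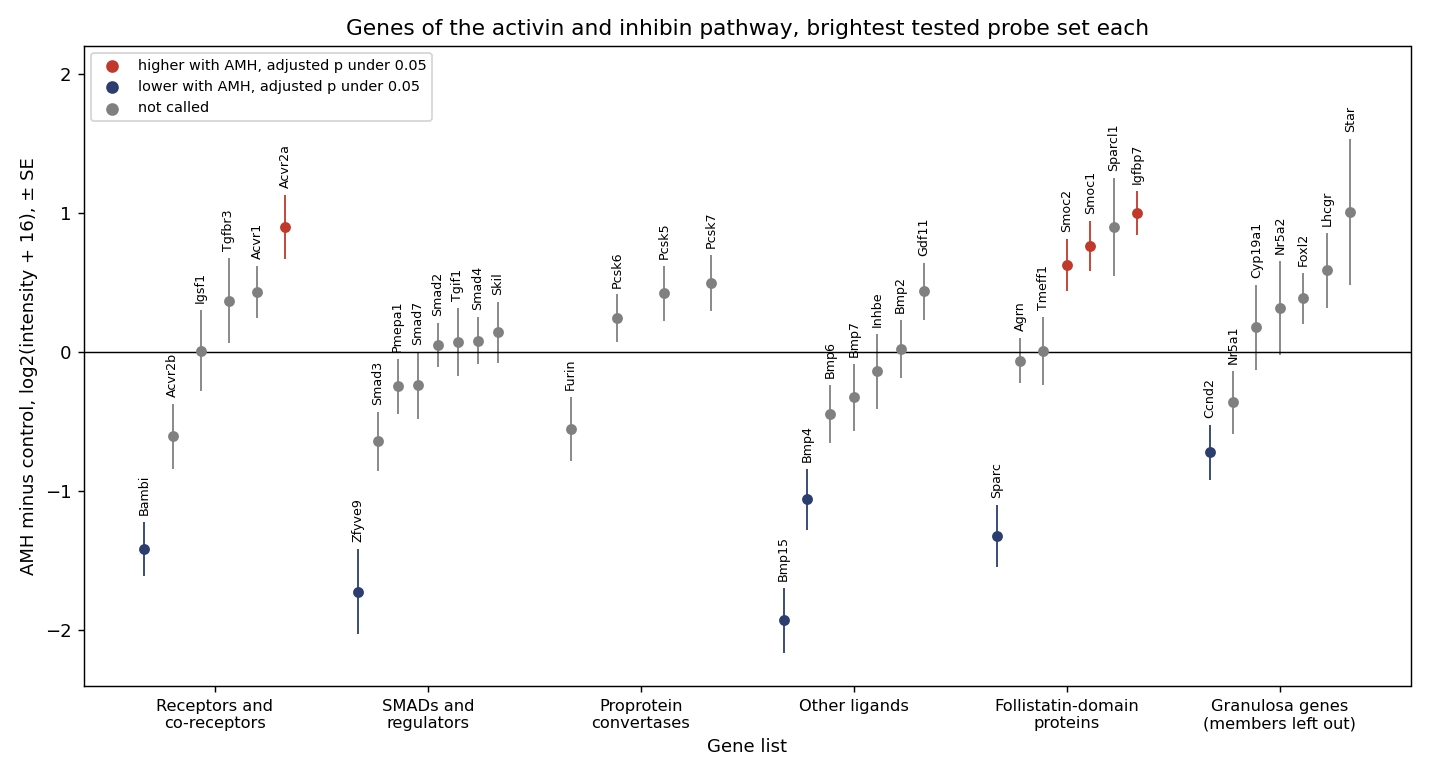
Change with AMH (AMH minus control, log2(intensity + 16), ± SE of the limma fit) of the genes in the 6 lists without the members, each at its brightest tested probe set, red where called higher, blue where called lower and grey where not called. The 4 genes called higher are Acvr2a, Smoc2, Smoc1 and Igfbp7, and the 6 called lower are Ccnd2, Bmp4, Sparc, Bambi, Zfyve9 and Bmp15, where the sizes for Zfyve9 and Bmp15 depend on the constant added.

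The genes whose pattern over the 4 arrays was most like each member's were found by the root mean square difference of their log2 profiles, each centred on its own mean. Closest to Inhbb were St3gal4 (0.075), Dclk1 (0.098) and Spin2b (0.117), and St3gal4 read 579.8 and 295.4 on the AMH arrays and 124.7 and 119.7 on the control arrays. Closest to Inhba were Mmp13 (0.012), Rpl39 (0.139) and RT1-CE12 (0.148), and Mmp13, a collagenase, read 109.1 and 56.9 on the AMH arrays and 32.7 and 15.4 on the control arrays. Closest to Inha were Masp1 (0.083), Itga8 (0.091) and Slc5a3 (0.169), and Masp1, a protease of the complement system, read 475.6 and 147.3 on the AMH arrays and 142 and 114.9 on the control arrays. No gene was among the first 3 of more than 1 subunit. For the flatter profiles of the follistatins, Fst (1372750_at) was closest to Tecpr1 (0.016), Rnf217 (0.018) and Scrib (0.022), Fstl1 (1368822_at) to Lhfpl2 (0.005), Brd1 (0.009) and Zranb2 (0.015), and Fstl3 to Slc22a23 (0.022), Ttc13 (0.025) and Gk (0.025). With 4 arrays such likeness is a description of these libraries and nothing more.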

How the data were processed

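Probe set intensities on a linear scale were used as deposited by the authors, in 1 table with a column per array. Total RNA was labelled with biotin by standard Affymetrix procedures, per the labels' protocols, but the sources used here do not say which software summarised the probes. After trimming 2 percent from each end, the mean intensity was 125.03 on all 4 arrays, the mark of scaling to a common target. Sample titles gave each array's group and replicate number. Left out were 57 Affymetrix controls and, of the remaining probe sets, the dimmest 40 percent by mean, and AMH was compared with control on log2(intensity + 16) in R 4.3.3 with limma 3.58.1 (lmFit, eBayes with an intensity trend, 2 residual and 6.33 prior degrees of freedom), two-sided, with Benjamini-Hochberg adjustment and a threshold of 0.05. The method was tested on simulated data. With 2 arrays per group the p-values rest on the spread pooled over probe sets. The table used here has 1 value per probe set and array and no detection call, and the number of arrays limits precision.

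Genes were named from the platform annotation where it gives 1 symbol, and all 11 member probe sets matched a RefSeq gene of GRCr8 by Entrez identifier. A gene was represented by its brightest tested probe set, all probe sets of members are given, and list genes are named if called or if activin signals through them. Dimmer probe sets of list genes (Smad4, Smoc1, Sparc, Bmp6, Nr2f2, Gata4), Acvr1c, Acvr1 and the named granulosa markers were added after their values were seen. The members and gene lists were chosen with earlier results of these data known. Same-numbered arrays did not deviate together (r = -0.00082 across tested probe sets). The labels do not say whether the numbers pair the pools, which this value cannot settle. Alternatives were other constants, filters, scalings and variance models, a replicate block, the mean over probe sets and leaving out each array.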

Additional observations from a re-analysis of the deposited data

How the results depend on the processing

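The arrays' number, the 3′/5′ ratio and the run, which differ between the groups, limit every value, and no setting addressed the last 2. Inhbb and Fstl1 1368821_at kept their call and direction in all 14 alternatives. Scaling to the hybridization controls moved the median of all tested probe sets to -0.39 (0.02 as deposited). Without subtracting that shift, it gave 0.80 for Inhba (call lost), -0.98 for Fst 1387843_at and -0.90 for Fstl1 1371331_at (calls gained), and turned Fst 1372750_at (-0.16), Fstl1 1368822_at (-0.19), Fstl3 (-0.29), Smad2 (-0.42), Smad4 (-0.39) and Acvr1 (-0.03) below 0. Under it 146 probe sets were higher and 4935 lower (1614 and 2385 as deposited), 0 and 12 of the pathway genes and 1 and 3 of the member probe sets. Igfbp7, Smoc1, Smoc2 and Acvr2a lost their calls there.

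The mean over probe sets gave -0.10 for Fst and -0.73 for Fstl1. Quantile normalization gave -0.56 for Fst 1387843_at, so that 2 member probe sets were lower, and -0.00 for Smad2. With no filter 1010 probe sets and 2 pathway genes were higher, and without the intensity trend 989 probe sets. Leaving out each array in turn gave 0.20 to 1.94 for Inha, 0.87 to 1.67 for Inhba, -0.64 to -0.39 for Fst 1387843_at, -0.60 to -0.25 for Fstl1 1371331_at, -0.02 to 0.27 for Fstl3, -0.09 to 0.20 for Smad2 and -0.06 to 0.22 for Smad4. It gave 334 to 2245 probe sets higher and 1047 to 2886 lower, 1 to 6 pathway genes higher, and 1 to 3 member probe sets higher and 1 to 2 lower. Fewer probe sets were called in either direction without a control array, where the AMH pair gave the spread, than without an AMH array, where the control pair did. The replicate block gave 1350 probe sets higher and 2216 lower, and changed no call among the members (Inha 1.07, adjusted p = 0.0536). The cause of the other shifts in this section was not tested.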
